A study of Rattus norvegicus with 6 samples.

Results

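The data describe the genes for the subunits of heterotrimeric G proteins in organ cultures of rat pituitary. A gene was taken as a member when its array annotation symbol was that of an alpha subunit (Gna), a beta subunit (Gnb) or a gamma subunit (Gng or Gngt), which gave 30 genes on 45 probe sets, out of 14217 named genes and 31042 probe sets on the array. Of the members, 13 encode alpha subunits, 6 beta subunits or the beta-like protein Gnb1l, and 11 gamma subunits. A gene with several probe sets stands for the one with the highest mean log2 intensity over the 6 arrays. That mean chose the probe set without regard to treatment, so it is given as a description.

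RNA of 3 control samples and of 3 samples given GnRH at 10 nM, all organ cultures, was hybridised to 1 array each. GnRH, or gonadotropin-releasing hormone, comes from the hypothalamus and drives LH and FSH production in pituitary gonadotropes. The sources used here give neither strain, sex and age of the rats nor a control vehicle or a treatment time, and they do not say whether the samples of a group came from separate animals or cultures. Every p-value thus reflects the scatter among these samples alone, some of which may be technical.

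A heterotrimeric G protein carries the signal of a seven-helix receptor to enzymes and channels inside the cell. The alpha subunit binds GDP at rest; an active receptor makes it exchange GDP for GTP, upon which alpha parts from the beta-gamma pair and both act on effectors until alpha hydrolyses its GTP. Alpha subunits fall into classes by effector: Gs stimulates adenylyl cyclase, Gi/o inhibits it or acts through released beta-gamma, Gq/11 activates phospholipase C beta, and G12/13 engages a set of guanine nucleotide exchange factors. The GnRH receptor is best known for coupling to Gq/11, while Gs-coupled and Gi-coupled receptors carry the releasing and inhibiting signals for other pituitary hormones.

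Markers of both pituitary lobes were read above the median probe set, and the control samples were uneven. All 10 anterior lobe markers looked up, among them Gh1, Prl and Lhb, lay above it, as did all 8 of the posterior lobe and glia, so that this criterion does not set the lobes apart. The summed linear intensity of the 8 posterior lobe and glia markers was 1865 to 2191 in controls and 1576 to 1772 with GnRH, although 4 of them differed upwards and 4 downwards, from -1.97 for Gfap to 0.45 for Nefl on the log2 scale, and none passed the test. For 7 fibroblast and pericyte markers the sum was 857 to 1174 and 749 to 973 (3 upwards, 4 downwards). For 10 anterior lobe markers it was 49690 to 54860 and 53281 to 56172 (6 upwards, 4 downwards, from -0.82 for Pomc to 1.12 for Gnrhr, which passed). In the fibroblast and pericyte sum, control 3 lay within the GnRH range and controls 1 and 2 above it. In the anterior lobe sum, control 3 lay within the GnRH range and controls 1 and 2 below it. Of 3 intermediate lobe markers Drd2 passed at 0.56 (limma adjusted p = 0.0399), while Pomc at -0.82 and Pcsk2 at -0.57 did not. The call of Drd2 held without control 3 and ended with any other array left out. It also ended with quantile normalization, cyclic loess and an offset of 16 before the logarithm (limma adjusted p = 0.0982, 0.0982 and 0.0514). The part of these cell types in the results was not tested, and in whole tissue fewer cells of a type cannot be told apart from less RNA per cell. Control 3 stood apart: its log2 values correlated across probe sets with those of controls 1 and 2 at 0.983 and 0.986, and with GnRH arrays at 0.988 to 0.991. Xist, the RNA that coats the inactive X chromosome of female cells, read 3.66 and 3.91 in controls 1 and 2 on its brightest probe set, but 9.77 in control 3 and 9.16 to 9.73 with GnRH. Thus 2 of 3 controls were low in Xist and all GnRH samples high, a division that runs through every difference below; its part in them was not tested, and the labels leave the sex of the rats unstated. Values without control 3 are given where a call changes and for the 8 members whose log2 difference moved by over 0.1; those against control 3 alone set samples high in Xist against each other.

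Gna12 and Gnb2 were the members that rose with GnRH, and no member fell. Gna12, the alpha subunit of G12, was 1.48-fold higher, and Gnb2, a broadly expressed beta subunit, 1.66-fold higher. The other 28 members did not pass the test, by limma with a Benjamini-Hochberg adjusted p under 0.05 over all probe sets. Among all probe sets, 0.422% were called higher and 0.0419% lower; with 1 probe set per named gene, the shares were 0.556% and 0.0492%. The 2 called members made up 6.67% of the 30. Over the whole family 16 differences were above 0 and 14 below, beside 47.6% of named genes above 0, and the median log2 difference was 0.011, against -0.0089 over all named genes. At an unadjusted p under 0.05 there were 4 members (Gna12, Gnb2 and Gnas higher, Gnb4 lower), beside 13.2% of named genes. The groups did not overlap in 3 members that were higher and 2 that were lower, while 8.65% and 8.62% of named genes lay apart in those directions.

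**Figure D1:**
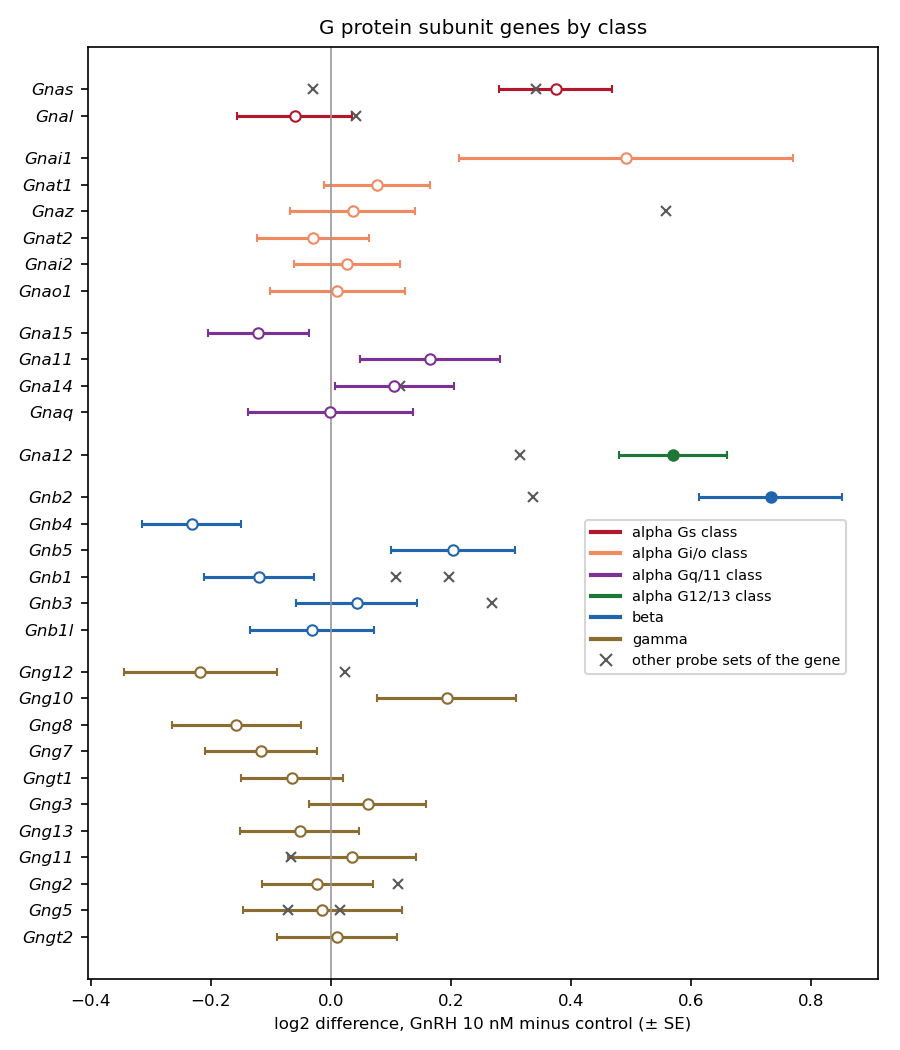
Log2 difference (GnRH 10 nM minus control, circle, with its SE) for each of the 30 subunit genes, grouped and coloured by class; filled circles passed the test and crosses are the other probe sets of a gene. Gna12 at 0.57 and Gnb2 at 0.73 are the filled circles, and the cross of Gnaz at 0.56 lies far from its circle at 0.036.

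The start-site regions of the 2 genes that rose are shown because they are the members whose transcripts differed; each run is the 250 bases before the RefSeq start in assembly GRCr8, on the plus strand, located at chr12:18919379-18919628 for Gna12 and chr12:24795529-24795778 for Gnb2. Capitals mark matches, on either strand, of the GC box GGGCGG, the core cAMP response element TGACG, the AP-1 site TGANTCA and the Egr1 site GCGGGGGCG.
Gna12: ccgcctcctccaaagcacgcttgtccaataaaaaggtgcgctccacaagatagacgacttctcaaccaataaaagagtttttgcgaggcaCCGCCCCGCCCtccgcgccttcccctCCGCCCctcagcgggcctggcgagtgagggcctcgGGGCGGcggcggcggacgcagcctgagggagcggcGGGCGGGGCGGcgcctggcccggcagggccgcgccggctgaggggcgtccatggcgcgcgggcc
Gnb2: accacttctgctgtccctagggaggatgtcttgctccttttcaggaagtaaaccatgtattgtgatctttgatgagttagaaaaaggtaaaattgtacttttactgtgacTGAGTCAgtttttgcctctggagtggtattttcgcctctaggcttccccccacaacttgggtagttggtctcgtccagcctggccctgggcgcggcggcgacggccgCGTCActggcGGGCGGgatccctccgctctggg
The Gna12 window has a G and C content of 72.0% and holds 6 GC box matches, of which 2 pairs overlap each other, and none of the other motifs. The Gnb2 window has 54.0% and holds 1 GC box, 1 AP-1 and 1 core cAMP response element match. Among 27457 such windows of the genome 32.4% hold the GC box, 19.0% the core element, 6.36% the AP-1 site and 2.49% the Egr1 site. Of the members, 22 had a window by gene identifier; 12 of these hold the GC box, 5 the core element (Gnao1, Gnaq, Gnb2, Gnb5 and Gng5), 2 the AP-1 site (Gnb2 and Gng12) and 2 the Egr1 site (Gnao1 and Gnb4). The median G and C content was 61.6% in these 22 and 52.0% in all windows. A match describes the letters alone.

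Gna12 is the sole G12/13 member described, as Gna13 was not among the members and was not analysed here. The same holds for Gnai3 and Gnat3 of the Gi/o class and for Gng4 and Gng14 of the gamma class. On its brighter probe set (1371798_at) log2 intensities were 6.91, 7.04 and 6.82 in controls and 7.51, 7.52 and 7.45 with GnRH. Every GnRH value lay above every control, and the SD of the GnRH samples was 0.036 (n = 3). The difference was 0.57 ± 0.090 (SE; limma adjusted p = 0.0280; 95% interval 0.37 to 0.77). Its other probe set (1369278_at) read 6.09, 6.27 and 5.75 against 6.39, 6.49 and 6.18, with GnRH 3 below control 2, and its difference of 0.32 ± 0.14 did not pass (limma adjusted p = 0.387). With the mean of both probe sets the difference was 0.44 (limma adjusted p = 0.120). Without control 3 the brighter probe set rose by 0.52 (limma adjusted p = 0.00731), and against control 3 alone by 0.67 (limma adjusted p = 0.0316). The call ended when any of the other arrays was left out, at differences of 0.56 to 0.63 and limma adjusted p of 0.0907 without control 1, 0.0636 without control 2, and 0.129, 0.171 and 0.0755 without GnRH 1, 2 and 3.

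Gnb2 showed the largest difference of the beta subunits, which form an obligate pair with gamma and hold alpha at the membrane. On its brighter probe set (1398863_at) log2 intensities were 9.22, 9.27 and 8.83 in controls and 9.89, 9.83 and 9.79 with GnRH. The groups were apart, and control 3 was the lowest sample. The difference was 0.73 ± 0.12 (limma adjusted p = 0.0317; 95% interval 0.468 to 0.997). The other probe set (1370867_at) also separated the groups, with 8.42, 8.48 and 8.20 against 8.70, 8.70 and 8.72, but its difference of 0.34 ± 0.10 did not pass (limma adjusted p = 0.198). Their mean gave 0.53 (limma adjusted p = 0.0648). Without control 3 the brighter probe set rose by 0.59 (limma adjusted p = 0.00335), and against control 3 alone by 1.01 (limma adjusted p = 0.00631). Leaving out another array ended the call, with limma adjusted p of 0.0679 and 0.0640 without controls 1 and 2 and 0.134, 0.174 and 0.0836 without GnRH 1, 2 and 3. Of the scalings tried, quantile normalization (0.65, limma adjusted p = 0.153) and cyclic loess (0.67, limma adjusted p = 0.163) ended it too, as did an offset of 16 before the logarithm (0.72, limma adjusted p = 0.0608).

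**Figure D2:**
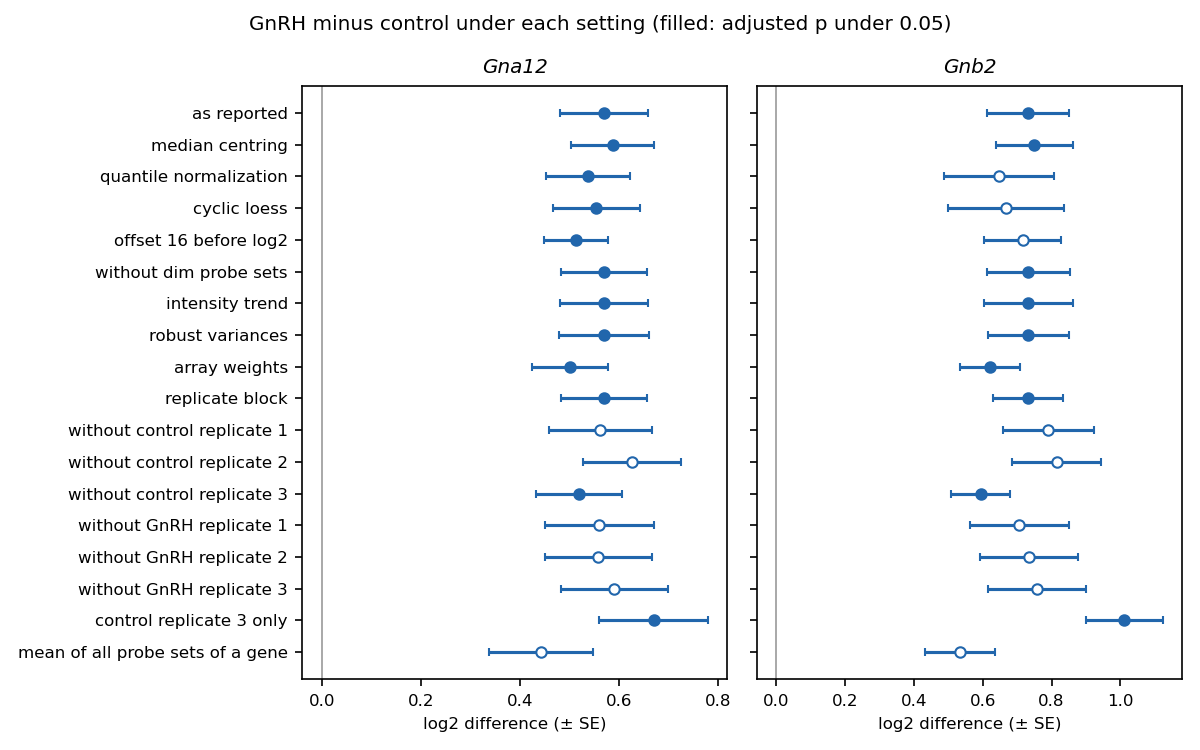
Log2 difference with its SE for Gna12 and Gnb2 under each way of processing the arrays; filled circles have an adjusted p under 0.05. All values lie right of 0, from 0.44 to 0.67 for Gna12 and from 0.53 to 1.01 for Gnb2, while most circles with 1 array left out are open.

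The Gs class had no call. Gnas, the gene of the alpha subunit that stimulates adenylyl cyclase and of further transcripts of the same imprinted locus, was read by its brightest probe set (1369897_s_at) at log2 intensities of 12.89, 13.01 and 12.88 in controls against 13.37, 13.16 and 13.37 with GnRH. These groups were apart, with a difference of 0.37 ± 0.094 (limma adjusted p = 0.141, 95% interval 0.17 to 0.58). The probe set is among the brightest on the arrays, and repeated quantile normalization cut its difference to 0.13 (limma adjusted p = 0.574). The other probe sets of Gnas differed: 1390263_at read 6.25, 5.82 and 6.26 against 6.51, 6.20 and 6.64 (0.34 ± 0.15), and 1387906_a_at read 10.44, 10.20 and 9.83 against 10.32, 9.86 and 10.21 (-0.029 ± 0.16). In both of these the groups overlapped and limma adjusted p was 0.378 and 0.959. The sources used here do not say which transcript of the locus each probe set reads. Gnal, the olfactory and striatal relative of Gs, read 7.08, 6.99 and 6.83 against 6.95, 6.96 and 6.82 (-0.060 ± 0.096, limma adjusted p = 0.833), with -0.13 without control 3 and 0.078 against control 3 alone.

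The Gq/11 class, the usual partners of the GnRH receptor, also had no call among 4 members, and 0 at an unadjusted p under 0.05 by limma. Gnaq read 5.98, 5.68 and 5.81 in controls and 6.01, 5.95 and 5.51 with GnRH, so that the GnRH samples spanned the controls. Its difference was -0.00099 ± 0.14, with a 95% interval of -0.31 to 0.30 (limma adjusted p = 0.999). Gna11, its close relative, read 6.24, 6.10 and 6.03 against 6.46, 6.36 and 6.05. It differed by 0.17 ± 0.12 (limma adjusted p = 0.597; 95% interval -0.092 to 0.42). Gna15, which couples to many receptors and is known from blood cells, read 5.82, 5.77 and 5.74 against 5.72, 5.64 and 5.60. All its GnRH values were below all controls, but by a small amount (-0.12 ± 0.084, limma adjusted p = 0.594). Gna14 read 5.04, 4.74 and 4.89 against 5.00, 5.06 and 4.92 on its brighter probe set (0.11 ± 0.099, limma adjusted p = 0.703), and its other one gave 0.11 as well. The probe sets of Gnaq, Gna14 and Gna15 lay below the median brightness of the array. The receptor gene itself, Gnrhr, was higher on the same arrays by 1.12 ± 0.17 on its brighter probe set (limma adjusted p = 0.0215). Its other probe set was also called, at 1.04 ± 0.14 (limma adjusted p = 0.0129), with the groups apart. The call of the brighter probe set ended without control 1 or 2 (limma adjusted p = 0.0789 and 0.0940) and without GnRH 2 or 3 (0.0658 and 0.0545). It also ended with the offset of 16 (limma adjusted p = 0.0637). Against control 3 alone the brighter probe set was higher by 0.89. Whether the call of the other probe set held in these cases was not examined.

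In the Gi/o class, which carries the signals of somatostatin and dopamine in the pituitary, no gene passed on its brightest probe set. Of 6 differences 5 were above 0, beside 47.6% of named genes. Without control 3 those of Gnaz and Gnao1 turned to -0.016 and -0.10. Gnaz, a member with slow GTP hydrolysis that resists pertussis toxin, differed between its probe sets. The brighter one (1368185_at) read 7.26, 7.33 and 7.14 in controls and 7.46, 7.20 and 7.18 with GnRH (0.036 ± 0.10, limma adjusted p = 0.915). The other (1387095_at) read 5.92, 5.74 and 5.81 against 6.35, 6.40 and 6.38, a rise of 0.56 ± 0.087 (limma adjusted p = 0.0269). It was the sole call among the 15 other probe sets of the family, beside the background of 0.422% higher. Within each array, the log2 value of this probe set minus that of the brighter one was -1.34, -1.59 and -1.33 in controls and -1.11, -0.80 and -0.80 with GnRH. These values were apart by 0.52 on average (2-sided exact permutation p = 0.1, the smallest that 3 against 3 samples can give; Benjamini-Hochberg adjusted 0.25 over 15 such pairs). The same p was reached by 5 other pairs, of Gnb1 (both pairs), Gnb2, Gnb3 and Gng12. The call of 1387095_at held without control 1 or control 3 (limma adjusted p = 0.0468 and 0.00667) and ended without control 2 (0.119) or without GnRH 1, 2 or 3 (0.108, 0.164 and 0.0880) and against control 3 alone (0.0523).

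**Figure D3:**
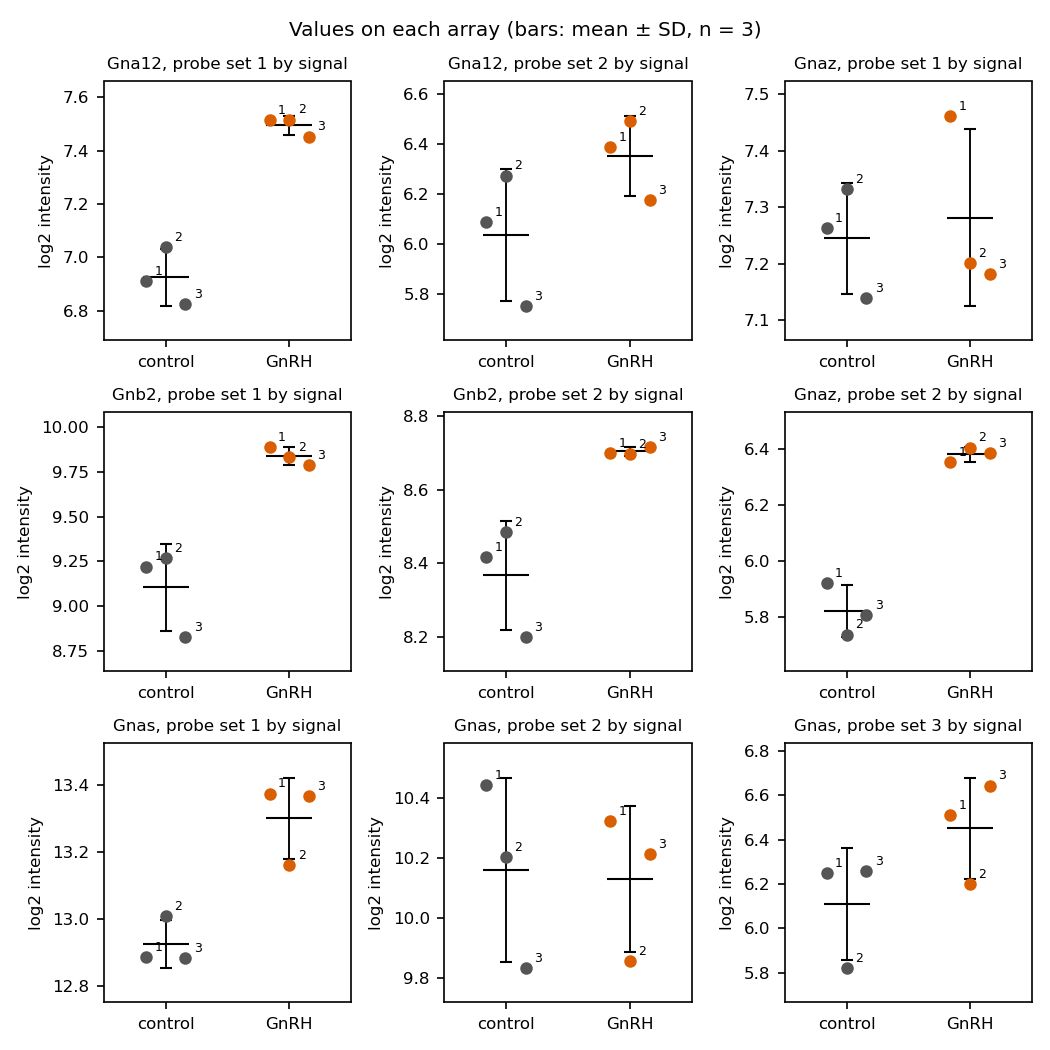
Log2 intensity on each array (points, numbered by replicate) for every probe set of Gna12, Gnb2, Gnaz and Gnas, with the mean and SD of each group (n = 3); each panel has its own axis. Gna12, Gnb2 and Gnas are apart on their brightest probe set, Gnb2 also on its second, and Gnaz on its dimmer one alone.

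Gnai1, an inhibitory alpha subunit, varied most among the samples. Its log2 intensities were 4.37, 4.36 and 5.44 in controls, against 5.24, 5.62 and 4.79 with GnRH, from a probe set below the median brightness. Control 3 lay within the range of the GnRH samples, and controls 1 and 2 lay below it. The difference was 0.49 ± 0.28 (limma adjusted p = 0.507); without control 3 it was 0.85 ± 0.18 (limma adjusted p = 0.0219), and against control 3 alone -0.22. The other members of the class were close to 0: Gnat1, the rod photoreceptor transducin, at 0.077 ± 0.088 with values of 6.17, 6.25 and 6.11 against 6.33, 6.19 and 6.23, and the cone transducin Gnat2, Gnai2 and Gnao1 from -0.030 to 0.027 (Gnao1 0.011, and -0.10 without control 3). Limma adjusted p in these 4 genes ran from 0.756 to 0.978.

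Apart from Gnb2, no beta gene passed. Gnb4 read 6.67, 6.73 and 6.68 in controls and 6.51, 6.45 and 6.41 with GnRH; the groups were apart, and its difference of -0.23 ± 0.083 was the lowest of the family (limma adjusted p = 0.299). Gnb5, the divergent beta subunit that pairs with R7 RGS proteins, read 6.76, 6.73 and 7.06 against 7.06, 7.04 and 7.06. Here control 3 lay level with the GnRH samples and controls 1 and 2 lay below them. The difference was 0.20 ± 0.10 (limma adjusted p = 0.462), but 0.31 ± 0.082 without control 3 (limma adjusted p = 0.0475) and -0.0076 against control 3 alone. Gnb1 had -0.12, 0.11 and 0.20 on its 3 probe sets, Gnb3 0.043 and 0.27 on its 2, and Gnb1l -0.031, with limma adjusted p from 0.409 to 0.928.

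The 11 gamma genes, whose short prenylated products anchor the beta-gamma pair, had no call, 0 at an unadjusted p under 0.05 by limma, and differences from -0.22 to 0.19, with a median of -0.022. Gng12 read 7.68, 7.76 and 8.17 in controls and 7.74, 7.57 and 7.64 with GnRH (-0.22 ± 0.13, limma adjusted p = 0.521). Control 3 was its highest sample. Without control 3 the difference was -0.068, and against control 3 alone -0.52. The other probe set of Gng12 (1377739_at) gave 0.024 ± 0.088. Gng10 read 8.95, 8.85 and 9.30 against 9.19, 9.25 and 9.24 (0.19 ± 0.12, limma adjusted p = 0.533). Control 3 was again highest; without it Gng10 was 0.33 ± 0.085 higher (limma adjusted p = 0.0442), and against it alone -0.073. Gng8, known from olfactory and vomeronasal neurons, read 4.02, 3.87 and 3.63 against 3.66, 3.73 and 3.66 (-0.16 ± 0.11, limma adjusted p = 0.585). Control 3 was its lowest sample; the difference was -0.26 without it (limma adjusted p = 0.0974) and 0.052 against it alone. The other 8 gamma genes (Gng2, Gng3, Gng5, Gng7, Gng11, Gng13, Gngt1 and Gngt2) lay between -0.12 and 0.061; of these Gng5 moved most without control 3, from -0.014 to 0.11.

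Leaving out control 3 thus raised the count of called members from 2 to 5 of 30, all higher, with Gnai1, Gnb5 and Gng10 beside Gna12 and Gnb2. That is 16.7% of members, while 4.95% of all probe sets were then called higher and 2.49% lower. The share with 1 probe set per named gene, which would match the members, was not computed without control 3. Without it, the comparison sets controls with low Xist against GnRH samples with high Xist, and the part of this division in the result was not tested. With any 1 of the other 5 arrays left out, 0 members were called by limma.

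**Figure D4:**
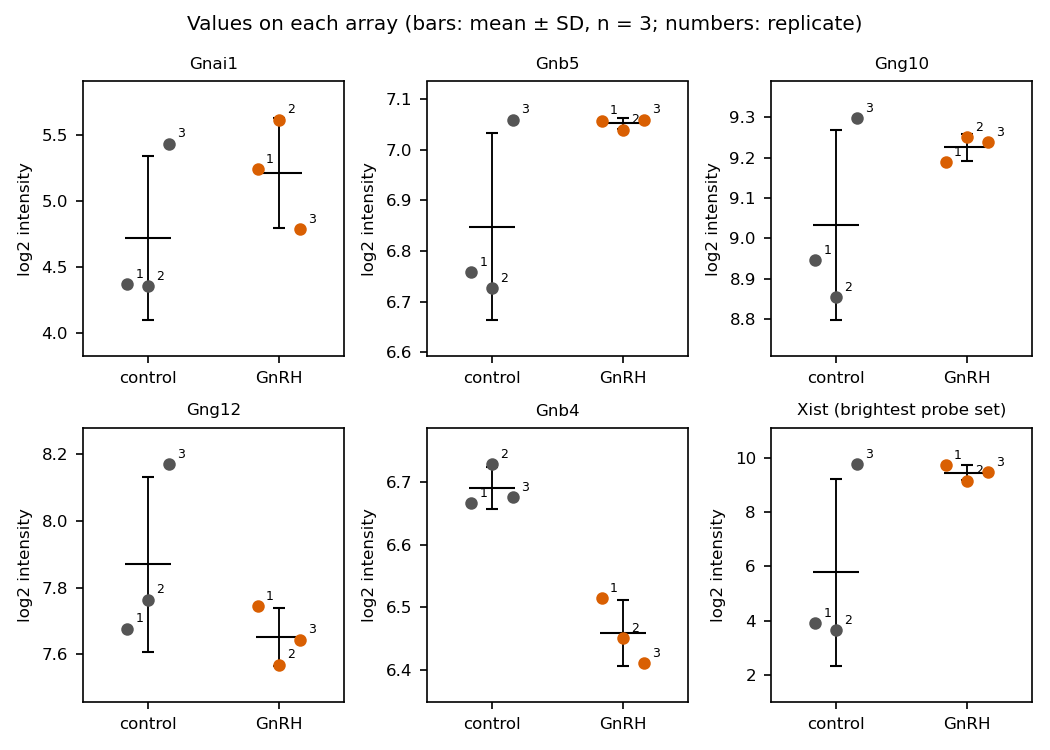
Log2 intensity on each array (points, numbered by replicate; bars, mean and SD, n = 3) for Gnai1, Gnb5, Gng10, Gng12 and Gnb4 and for Xist, each on its own axis. Control 3 is the highest control in Gnai1, Gnb5, Gng10, Gng12 and Xist, while the 3 controls of Gnb4 lie together above the GnRH samples.

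Of 15 probe sets other than the brightest, in 12 genes, 7 had the sign of the brightest and 8 the opposite sign, and in 0 of those 8 pairs had either probe set passed. Gna11 and Gna15 are direct neighbours in the GRCr8 assembly, with differences of 0.17 and -0.12, as are Gng11 and Gngt1, with 0.036 and -0.065; none of the 4 was called.

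Among genes that act with the subunits, 1 of 3 exchange factors of the G12/13 route rose. Arhgef1, an exchange factor that G12 and G13 engage, read 7.28, 7.20 and 7.01 in controls against 8.02, 8.20 and 8.08 with GnRH, on its single probe set. The groups were apart, and the difference was 0.93 ± 0.099, or 1.91-fold (limma adjusted p = 0.00586). It passed with each array left out in turn, with limma adjusted p from 0.000834 without control 3 to 0.0420 without GnRH 2. The related exchange factors Arhgef11 and Arhgef12 differed by 0.048 ± 0.10 and -0.11 ± 0.088 and did not pass (limma adjusted p = 0.880 and 0.657).

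Arhgef1 was the sole call among 21 effectors measured, with 0 lower and a median difference of -0.040, beside 0.556% of named genes called higher and 0.0492% lower. Adenylyl cyclase Adcy6 read 8.51, 8.60 and 8.71 in controls and 8.96, 8.89 and 9.00 with GnRH, which did not pass (0.34 ± 0.090, limma adjusted p = 0.156) except without control 3 (0.39, limma adjusted p = 0.0236). Phospholipase C beta genes, the Gq/11 effectors, ran from -0.073 for Plcb4 to 0.16 for Plcb1. The channel gene Kcnj5, opened by beta-gamma, was at -0.29 ± 0.11 (limma adjusted p = 0.345).

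**Figure D5:**
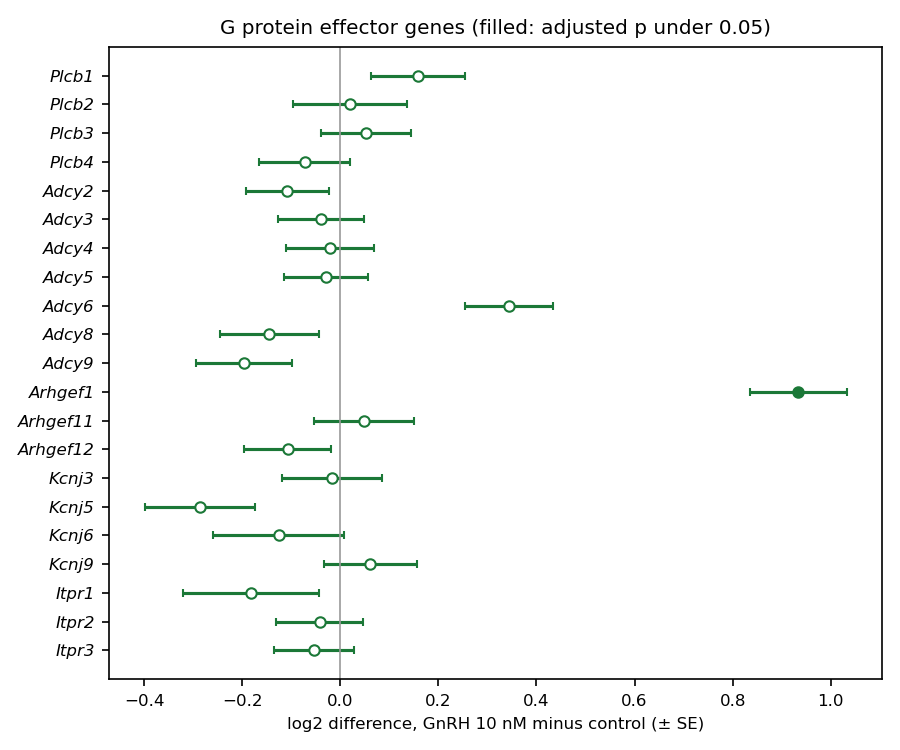
Log2 difference (GnRH 10 nM minus control) with its SE for the 21 effector genes measured: phospholipases C, adenylyl cyclases, G12/13-engaged exchange factors, G protein-gated potassium channels and IP3 receptors. Arhgef1 at 0.93 is the filled point, with an adjusted p under 0.05; the rest lie between -0.29 and 0.34.

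Among 11 enzymes listed as adding or removing the lipids of proteins, Abhd17a, a depalmitoylating enzyme, rose by 1.003 ± 0.13 (limma adjusted p = 0.0135, but 0.0523 without GnRH 1 and 0.0820 without GnRH 2) and 10 did not pass. Whether Abhd17a acts on G protein subunits was not tested. Nmt2, an N-myristoyltransferase, was at -0.40 ± 0.11 (limma adjusted p = 0.193; -0.50 and 0.0164 without control 3). By limma, 0 genes were called among 17 RGS proteins, which speed GTP hydrolysis, 10 receptor kinases and arrestins, and 13 chaperones, exchange factors and dissociation inhibitors. At an unadjusted p under 0.05, 3 were higher and 2 lower in the first of these lists, 0 and 1 in the second and 1 and 0 in the third, beside 13.2% of named genes in both directions. The RGS genes with the smallest p-values were Rgs4 (0.55 ± 0.11, limma adjusted p = 0.0576) and Rgs16 (-0.23 ± 0.086, limma adjusted p = 0.308). Gpsm1, which holds Gi alpha in its GDP form, was at 0.32 ± 0.12 (limma adjusted p = 0.322; 0.19 without control 3), the chaperonin subunit Cct5 at -0.17 ± 0.10, and the receptor kinases Grk5 and Grk2 at -0.19 ± 0.085 and 0.23 ± 0.11, with limma adjusted p of 0.540, 0.398 and 0.434. Without control 3 Cct5 was at -0.091 and Grk2 at 0.11. Without control 3, Rgs4 (0.63), Rgs7 (0.42) and Rgs10 (0.87) also passed, with limma adjusted p of 0.00455, 0.0205 and 0.00915. Against control 3 alone, Rgs4 differed by 0.39, Rgs7 by 0.056 and Rgs10 by -0.090. The Rgs10 probe set lay below the median brightness of the array. In all 2 of 72 such genes (2.78%) were called with 6 arrays, both higher. Over all named genes, 0.556% were called higher and 0.0492% lower with these arrays. Without control 3 there were 6 higher (8.33%) and 1 lower (1.39%), beside 4.95% and 2.49% of all probe sets. Here too the share with 1 probe set per named gene was not computed without control 3.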

How the data were processed

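The deposited values are 1-colour array intensities on a linear scale, made by the authors with RMA according to the submitters' processing notes; the sources used here name neither its version nor a filter. Detection calls were not used. They were turned into log2 values with no offset. Symbols were read from the platform annotation; 20826 probe sets had 1 symbol, 436 several and 9780 none, and genes were named from the first kind only. GnRH and control samples were tested against each other using R 4.3.3 and limma 3.58.1 (lmFit, eBayes, 2-sided moderated test, no covariate, all 31042 probe sets), with Benjamini-Hochberg adjustment over all probe sets and a threshold of 0.05. A log2 difference is the mean of 3 GnRH arrays minus the mean of 3 control arrays, and the number of arrays limits its precision. Intensities of different probe sets were not set against each other as levels, except that marker genes were placed against the median probe set and their linear intensities summed per array. Within-array differences between probe sets of a gene were compared with an exact permutation test (scipy 1.17.1). A dim probe set is one whose mean is under the median of all probe sets; 20 of 30 members were not dim. Named with every value were called members, Gnaq, Gna11, Gnas and up to 3 members per class with the smallest p-values; the panels of other pathway genes named calls and the smallest p-values, and further genes were chosen after their values were seen. Promoter sequences are RefSeq's for GRCr8. The method was tested on simulated data. Members and lists were chosen with earlier results of these data known. Alternatives covered scaling, offset, dim probe sets, the variance model, array weights, the replicate number, each array left out, control 3 as the sole control, another threshold and other ways to combine probe sets.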

Additional observations from a re-analysis of the deposited data

How the results depend on the processing

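The direction of Gna12 and Gnb2 held under every alternative run. The count of members called higher, 2 as reported, was 1 with quantile normalization, cyclic loess or an offset of 16 (Gna12 in each), 0 with the mean of a gene's probe sets, 6 with array weights (lowest for control 3, at 0.298), and 0 to 5 with 1 array left out; no member was called lower under any of them. Over all probe sets, 131 were called higher and 13 lower. Median centring gave 7 lower, quantile normalization 82 higher and 8 lower, cyclic loess 85 and 8, the offset 70 and 4, array weights 1763 and 1257, control 3 as sole control 217 and 48, and an adjusted p under 0.1 295 and 46. With 1 array left out, 20 to 1536 were higher and 0 to 773 lower, and 1 to 7 of the other pathway genes were called. With control 3 alone, the lone sample was assumed to vary like the GnRH samples. The replicate block, with the title number as a factor, left the same 2 members called (limma adjusted p = 0.0316 and 0.0243), with 195 probe sets higher and 20 lower. Whether the numbers pair the samples cannot be settled from the values, as deviations from a mean of 3 arrays depend on each other. Deviations of same-numbered arrays correlated at 0.159, -0.049 and 0.156. Controls 1 and 3 correlated best with the GnRH array of their own number, and control 2 with GnRH 1. Without detection calls, signal over background cannot be judged for the 10 dim members.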
